A study of Mus musculus with 36 samples.

Results

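Spared nerve injury (SNI) of a peripheral nerve was compared with no injury in the dorsal spinal cord of wild-type mice. The comparison rests on 9 of the 36 RNA-sequencing libraries of the study, chosen by their labels alone: 4 wild-type cord libraries labelled SNI (E5, E7, F5 and F7, by their title codes) and 5 labelled as naive and untreated (A5, A7, B5, B7 and C5). The study set wild-type mice beside sigma-1 knockout mice and sampled the dorsal root ganglion (DRG) and the dorsal cord of both genotypes, naive or after SNI. Per the series title the mice were female. The labels name no time after injury, side or strain. Nothing in the labels said whether each library came from a separate mouse, so p-values measure the spread between libraries; the model took that spread from all 18 cord libraries, 9 of them of knockout mice.

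In SNI, branches of the sciatic nerve are cut and 1 branch is left intact, so that injured and spared sensory fibres end in the same part of the dorsal horn. Microglia, the resident macrophages of the spinal cord, react to signals from the injured sensory neurons: they divide, change shape and release mediators that alter dorsal horn circuits. The cell bodies of the cut sensory axons sit in the DRG and those of the cut motor axons in the ventral horn. Astrocytes also react to nerve injury, commonly after microglia.

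The 9 wild-type cord libraries held 22.5 to 24.8 M estimated reads. The first principal component took 20.2% of the variance and separated the groups, with naive libraries at scores of -20.25 to -11.33 and SNI libraries at 10.89 to 25.47; F5 was the SNI library nearest to the naive ones. Genes of dorsal horn inhibitory neurons were present in every library (Slc6a5, the glycine transporter of glycinergic neurons, at 478 to 593 CPM, estimated counts per M mapped to genes). Of 15 markers of primary sensory neurons 10 had a mean under 1 CPM. All 15 together summed to 115 to 139 CPM in naive cord and 124 to 148 CPM after SNI. Genes of motor neurons were also present (Chat at 6.38 to 15.2 CPM), so the tissue labelled as dorsal cord held some motor neuron or other cholinergic RNA.

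After SNI, 492 genes were higher and 51 lower at an adjusted p under 0.05 (edgeR's quasi-likelihood test, Benjamini-Hochberg adjusted over all genes tested, used for every adjusted p given here). These were 2.61% and 0.271% of the 18843 genes tested, and 2.88% (543 genes) for both directions together. The median rise was 0.82 on the log2 scale and the median fall -0.19, so that the rises were both more numerous and larger. Rises beyond 2-fold numbered 174, while 1 gene fell beyond 2-fold: Otog, which encodes otogelin and was at a low level (a log2 change of -2.18 ± 0.37, SE). In 447 of the 492 rises and 39 of the 51 falls no SNI library overlapped a naive one; over all genes tested 4.87% did not overlap, 3.41% having SNI libraries entirely above and 1.46% entirely below.

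Genes of microglia, of interferon signalling and of injured neurons are described first, the last because they held the largest single fold changes. Promoter sequences of 6 of these genes are given here because each carries a match to a motif of the factor family known to act on that group. They were read from a RefSeq table of mouse promoters (GRCm38.p6), which matched 12794 of the 18843 genes tested; each is the 250 bases before the gene's start, 5′ to 3′ on the gene's strand, with motif matches in capitals. Searched on both strands were GAGGAAG, a purine-rich core bound by PU.1 (the factor that sets macrophage and microglia identity), an interferon-stimulated response element (GAAA, any 2 bases, GAAA) and TGANTCA, an AP-1 element of the kind bound by Jun and Atf3 dimers. The genes were picked because they hold a match. Itgam lies at chr7:128062390-128062639 (plus strand), Trem2 at chr17:48346151-48346400 (plus), Fcgr1 at chr3:96293970-96294219 (minus), Ifit1 at chr19:34640639-34640888 (plus), Sprr1a at chr3:92485882-92486131 (minus) and Anxa10 at chr8:62123194-62123443 (minus).
Itgam: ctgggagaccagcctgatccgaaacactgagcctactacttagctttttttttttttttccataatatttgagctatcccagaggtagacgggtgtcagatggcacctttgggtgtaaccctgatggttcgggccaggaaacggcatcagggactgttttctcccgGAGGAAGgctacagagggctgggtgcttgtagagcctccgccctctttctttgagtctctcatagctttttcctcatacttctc
Trem2: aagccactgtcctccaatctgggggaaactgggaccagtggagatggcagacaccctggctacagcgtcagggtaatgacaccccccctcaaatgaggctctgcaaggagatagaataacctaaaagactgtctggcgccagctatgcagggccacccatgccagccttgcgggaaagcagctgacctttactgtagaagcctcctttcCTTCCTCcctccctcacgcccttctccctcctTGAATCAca
Fcgr1: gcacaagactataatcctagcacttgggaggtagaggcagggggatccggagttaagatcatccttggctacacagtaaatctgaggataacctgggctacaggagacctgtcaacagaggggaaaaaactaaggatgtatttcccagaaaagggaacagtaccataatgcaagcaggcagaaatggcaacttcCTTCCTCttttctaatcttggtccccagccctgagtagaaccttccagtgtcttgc
Ifit1: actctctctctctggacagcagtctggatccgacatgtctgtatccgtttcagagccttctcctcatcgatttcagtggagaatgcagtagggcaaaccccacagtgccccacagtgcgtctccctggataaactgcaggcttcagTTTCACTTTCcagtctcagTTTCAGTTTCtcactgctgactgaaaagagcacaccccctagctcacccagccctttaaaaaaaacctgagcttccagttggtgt
Sprr1a: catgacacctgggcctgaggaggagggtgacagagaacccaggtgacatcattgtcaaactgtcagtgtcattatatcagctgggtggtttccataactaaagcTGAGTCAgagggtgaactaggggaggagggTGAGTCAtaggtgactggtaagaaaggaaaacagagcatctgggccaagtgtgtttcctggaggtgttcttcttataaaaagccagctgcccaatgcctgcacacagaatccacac
Anxa10: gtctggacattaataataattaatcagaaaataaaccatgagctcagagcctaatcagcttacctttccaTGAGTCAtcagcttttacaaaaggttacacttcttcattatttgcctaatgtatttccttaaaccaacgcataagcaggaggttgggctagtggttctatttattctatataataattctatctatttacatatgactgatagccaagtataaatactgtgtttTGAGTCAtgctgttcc
In the Itgam promoter GAGGAAG begins 84 bases before the start, and in Trem2 and Fcgr1 its reverse complement begins 41 and 56 bases before it; Trem2 also holds an AP-1 match 9 bases before the start. Ifit1 has 2 interferon-stimulated elements, read on the reverse strand, 104 and 85 bases before the start. Sprr1a and Anxa10 each have 2 copies of TGAGTCA, beginning 146 and 116 bases, and 180 and 16 bases, before the start.

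Over all 32851 promoters of the table, 10.6% held GAGGAAG, 2.98% the interferon-stimulated element and 6.75% the AP-1 element. Among the genes tested with a promoter the shares were 12.9%, 3.19% and 5.73%. Of the 492 rises 382 had a promoter in the table, and GAGGAAG was in 86 of them (22.5%), the interferon-stimulated element in 31 (8.12%) and the AP-1 element in 46 (12%). Of the 36 falls with a promoter 7 held GAGGAAG (19.4%), 1 the interferon-stimulated element (2.78%) and 3 the AP-1 element (8.33%). GAGGAAG was in 8 of 14 risen genes of Fc and ITAM receptor signalling (57.1%) and in 5 of 12 risen microglia identity genes (41.7%). The interferon-stimulated element was in 6 of 11 risen interferon response genes (54.5%), and the AP-1 element in 3 of 12 risen axon injury genes (25%) and also in 3 of 11 risen interferon response genes (27.3%). A match describes these letters in this window and is no evidence that a factor binds there.

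Genes that define microglia rose almost without exception. Of 19 microglia identity genes 18 rose and none fell, with a median log2 change of 0.94, against 2.61% of all genes tested that rose. Their summed level was 432 to 478 CPM in the naive libraries and 825 to 875 CPM after SNI. The gene that did not pass was Sall1, a transcription factor of microglia that other cord cells also express (0.11 ± 0.05, adjusted p = 0.503). In a bulk sample more cells of a type and more RNA per cell cannot be told apart, as fewer cells and less RNA per cell cannot.

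Csf1r, the receptor for the survival factor CSF1, was at 85.3, 73.4, 72.2, 75.3 and 75.4 CPM in naive cord and at 151, 168, 159 and 155 CPM after SNI. All 4 SNI libraries lay above all 5 naive ones, of which A5 was the highest. The rise was 1.05 ± 0.05 (log2, SE; adjusted p = 1.39e-13).

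Itgam, which encodes the CD11b subunit of complement receptor 3 and spans chr7:128062640-128118491, had the largest rise of the list. It was at 20.4, 17.8, 14.9, 17.7 and 21.1 CPM in naive cord and at 50.2, 54.0, 51.7 and 53.0 CPM after SNI. The SNI libraries sat within 4 CPM of each other, far above the naive range. The rise was 1.51 ± 0.07 (adjusted p = 1.33e-12). Tmem119, a surface protein of microglia, went from 13.4 to 15.5 CPM in naive libraries to 31.7 to 36.1 CPM after SNI (1.18 ± 0.07), and Cx3cr1, the fractalkine receptor, from 32.7 to 37.2 CPM to 66.6 to 75.4 CPM (1.01 ± 0.06). P2ry12, the purinergic receptor that guides microglial processes and is often reduced in strongly activated microglia, also rose, from 24.5 to 32.2 CPM to 48.1 to 55.7 CPM (0.94 ± 0.06). Genes named here and below beyond the naming rule in the processing section, such as P2ry12 and Sall1, were chosen after their values were seen.

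**Figure D1:**
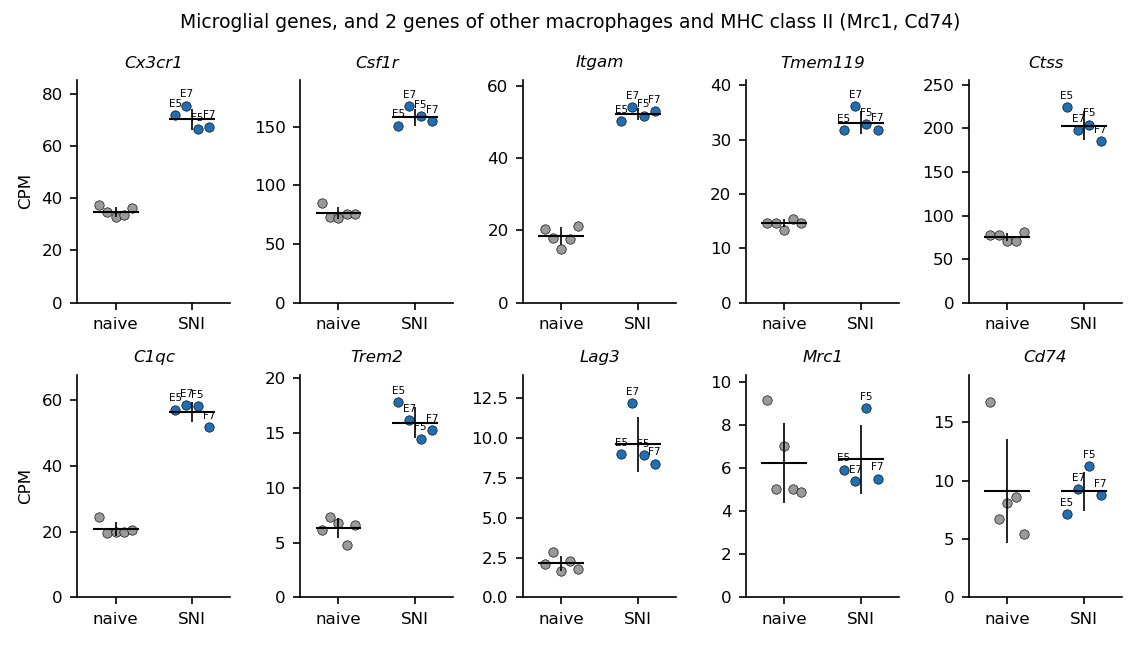
CPM of 10 genes in the 5 naive (grey) and 4 SNI (blue, with library codes) wild-type cord libraries; each point is a library, the horizontal line is the mean and the vertical line 1 SD. The 8 microglial genes do not overlap between groups, while Mrc1, of macrophages of vessels and meninges, and Cd74, of MHC class II, overlap.

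Receptors that signal through ITAM motifs, the short tyrosine sequences that recruit the kinase Syk, rose with them. Of 22 tested genes of Fc receptors, their adaptors and downstream enzymes 15 rose and none fell (median 1.06). Fcgr1, the high-affinity IgG receptor, was at 3.51, 3.61, 3.23, 3.19 and 2.87 CPM in naive cord and at 9.53, 9.52, 9.54 and 8.12 CPM after SNI. Here 3 SNI libraries were nearly equal and F7 was lower, still above the naive range. The rise was 1.48 ± 0.11 (adjusted p = 6.05e-10). Trem2, the lipid-sensing receptor that pairs with the adaptor Tyrobp, was at 4.81 to 7.32 CPM in naive cord and at 14.5 to 17.8 CPM after SNI (1.33 ± 0.10), and Tyrobp itself rose by 0.97 ± 0.07. Inpp5d, the phosphatase SHIP1 that restrains this pathway, rose as well, by 1.15 ± 0.09 (adjusted p = 1.86e-09). Among members that did not pass were Siglec1 (0.37 ± 0.26) and Fcgrt, the neonatal Fc receptor (-0.08 ± 0.18).

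Complement genes rose in part, the 3 genes of C1q among them. C1qa, C1qb and C1qc encode the 3 chains of C1q, the molecule that starts the classical pathway, and lie side by side on chromosome 4. C1qc was at 24.6, 19.7, 19.985, 19.8 and 20.5 CPM in naive cord and at 57.2, 58.6, 58.3 and 51.9 CPM after SNI. Every SNI library was more than double the highest naive library, A5. The rises were 1.43 ± 0.06 for C1qc (adjusted p = 3.74e-14), 1.40 ± 0.06 for C1qb and 1.18 ± 0.07 for C1qa. C4b, which acts after C1q, rose by 0.98 ± 0.14, and the receptor genes C3ar1 and Itgb2 by 1.04 ± 0.14 and 1.08 ± 0.10. Of 19 complement genes 8 rose and none fell. C3, the central component, was at 18.9 to 33.8 CPM in naive cord and 34.3 to 38.05 CPM after SNI, but did not pass (0.46 ± 0.15, adjusted p = 0.165). The later receptor C5ar1 (0.28 ± 0.31) and the regulator Cd59a (0.01 ± 0.08) did not pass either.

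Lysosomal and reactive microglia genes split. Of 24 tested 12 rose and none fell, with a median of 0.25. Ctss encodes cathepsin S, a protease that microglia release and that frees fractalkine from neurons. It was at 78.0, 77.1, 70.7, 71.3 and 80.5 CPM in naive cord and at 225, 198, 204 and 185 CPM after SNI. The lowest SNI library was more than double the highest naive one. The rise was 1.43 ± 0.06 (adjusted p = 2.6e-13). Ly86, a partner of the Toll-like receptor relative CD180, rose by 1.49 ± 0.09, Laptm5 by 1.09 ± 0.08 and the lysosomal protein gene Cd68 by 0.98 ± 0.12, while the abundant cathepsin gene Ctsd rose by 0.40 ± 0.04. Among the 12 that did not pass, picked after their values were seen, were Apoe (0.19 ± 0.07, adjusted p = 0.235), Spp1 (-0.01 ± 0.14), Clec7a (0.08 ± 0.26), Lpl (-0.05 ± 0.10), Axl (0.08 ± 0.04) and Gpnmb (0.30 ± 0.29). Itgax, an integrin gene of the same list, rose by 1.44 ± 0.23 from 0.357 to 0.576 CPM to 1.24 to 1.59 CPM, and Cst7 was too low to be tested, at 0.0433 to 0.0886 CPM in naive cord and 0.0903 to 0.373 CPM after SNI.

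Of 22 tested genes of microglial pain signalling, 15 rose and none fell (median 0.61). Irf8, a transcription factor needed for microglial reactivity after nerve injury, was at 4.16, 3.66, 4.08, 3.28 and 4.09 CPM in naive cord and at 7.404, 9.91, 8.35 and 9.03 CPM after SNI. The groups were apart, and the rise was 1.17 ± 0.10 (adjusted p = 2.12e-08). Irf5 rose by 0.80 ± 0.11 and P2ry6, a receptor for UDP, by 1.21 ± 0.20. P2rx4, the ATP receptor tied to tactile allodynia, was at 13.3 to 15.3 CPM in naive cord and 13.3 to 16.7 CPM after SNI and did not pass (0.05 ± 0.08, adjusted p = 0.891). Bdnf did not pass either (0.22 ± 0.09, adjusted p = 0.267), nor did Tlr4 (0.33 ± 0.21). The inflammatory cytokine genes Il1b (at most 0.258 CPM) and Tnf (at most 0.217 CPM) were too low to be tested. Csf1, the ligand of Csf1r, rose by 0.30 ± 0.07 (adjusted p = 0.0122).

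Markers of other macrophages held no called gene. Of 10 tested markers of macrophages of vessels and meninges none passed, and their median was 0.00. Over all genes tested 2.88% were called, so a count of 0 in 10 genes says little by itself. Of the 12 listed markers 5 had a mean under 1 CPM, so small changes could be missed. Mrc1 changed by 0.04 ± 0.27 (adjusted p = 0.986) and Stab1 by 0.05 ± 0.19. The sum of these markers was 19.5 to 38.02 CPM in naive cord and 23.6 to 33.1 CPM after SNI. At an unadjusted p under 0.05 none of the 10 passed either. Ccr2, the chemokine receptor of blood monocytes, was at 0.609 to 1.17 CPM in naive cord and 0.538 to 1.46 CPM after SNI. None of 8 MHC class II genes passed (Cd74 0.00 ± 0.31, H2-Aa -0.28 ± 0.31), though 2 of the 8 had an unadjusted p under 0.05. Naive library A5 stood high for Cd74, at 16.7 CPM against 5.39 to 8.61 CPM in the other naive libraries. Without A5 the changes were 0.34 for Cd74 (adjusted p = 0.7077) and 0.06 for H2-Aa (adjusted p = 0.9674). Of the blood cell lists, none of 6 red cell genes, none of 3 B cell genes, 1 of 3 T cell genes (Il7r, a rise of 0.87 ± 0.20, adjusted p = 0.0115) and 1 of 7 neutrophil genes (Mmp9, a fall of 0.46 ± 0.12 on the log2 scale, adjusted p = 0.0275) passed. The Mmp9 call was lost without A7 (adjusted p = 0.1034), B7, F5 or F7 and in the 9 libraries alone (0.1041); A7 stood apart in the summed neutrophil list, at 39.1 CPM against 11.7 to 16.1 CPM in the other naive libraries. None of 13 cell cycle genes passed.

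Interferon response genes rose after SNI, at unequal strength between libraries. Of 26 interferon response genes 17 rose and none fell (median 0.87). Their summed level was 155 to 181 CPM in naive cord and 186 to 264 CPM after SNI. The lowest SNI sum, 186 CPM in E7, was close to the highest naive sum, 181 CPM in A5. In 16 of the 26 genes the groups did not overlap, against 4.87% of all genes tested. Irf7, the factor that amplifies type I interferon production, was at 1.17, 0.848, 0.798, 1.17 and 0.827 CPM in naive cord and at 3.57, 1.77, 4.24 and 3.19 CPM after SNI. All SNI libraries were above the naive range, E7 the least. The rise was 1.72 ± 0.22 (adjusted p = 6.82e-06).

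Library E7 was the lowest SNI library in 15 of the 17 risen interferon genes and F5 the highest in 12. Over all 492 rises E7 was the lowest in 90 and F5 the highest in 99. Usp18, which curbs interferon signalling, was at 0.665 to 1.08 CPM in naive cord and at 4.42, 1.77, 4.32 and 2.48 CPM in E5, E7, F5 and F7 (1.93 ± 0.23, adjusted p = 3.21e-06). Ifi44 was at 0.303 to 0.580 CPM in naive cord and at 2.75, 1.08, 2.53 and 2.28 CPM after SNI (2.30 ± 0.28), and Oasl2, a relative of the antiviral 2'-5' oligoadenylate synthetases, at 2.61 to 4.07 CPM and then 8.67, 5.51, 10.7 and 7.78 CPM (1.25 ± 0.16). In each of them E7 was nearest to naive cord, yet above it. Ifit1, whose promoter is printed above, rose by 1.02 ± 0.18, and the antiviral GTPase gene Mx1 by 2.96 ± 0.48 at a level of at most 1.58 CPM. E7 did not stand low in microglial genes: its summed microglia identity level, 875 CPM, was the highest of the 4. Without E7 17 interferon genes rose with a median of 0.92, and without F5 14 rose with a median of 0.67.

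MHC class I genes rose in part. Of 14 genes 5 rose: B2m, H2-Q4, H2-Q6, Psmb8 and Nlrc5. B2m, the light chain of every class I molecule, was at 65.5, 64.8, 56.1, 55.4 and 62.8 CPM in naive cord and at 97.1, 73.9, 95.6 and 79.0 CPM after SNI. The groups did not overlap, and E7 was again the lowest SNI library, as it was in 4 of the 5 rises; the call of H2-Q4 was lost without E5 (adjusted p = 0.06512). The rise was 0.50 ± 0.09 (adjusted p = 0.00254). The classical heavy chain genes H2-K1 (0.56 ± 0.20, adjusted p = 0.242) and H2-D1 (0.29 ± 0.19) did not pass, and in H2-K1 E7 fell below the naive libraries, at 16.6 CPM against 17.3 to 21.4 CPM. How reads were split between class I genes, which are near copies of each other, bears on these values.

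Of 32 listed chemokine and cytokine genes 20 were tested, and 17 of the 32 had a mean under 1 CPM. Of the 20 tested 12 rose, most of them at low levels, and none fell (median 0.84). Over all genes tested 2.61% rose. The filter keeps a gene that is high in 1 group alone, so low genes could enter by their SNI libraries. The count and median therefore hold for the tested genes only. Ccl7, a ligand for monocyte receptors, was at 0.217, 0.134, 0.133, 0.202 and 0.087 CPM in naive cord and at 2.53, 1.38, 1.20 and 1.86 CPM after SNI. The groups were far apart, with E5 the highest. The rise was 3.44 ± 0.33 (adjusted p = 9.3e-08). Cxcl10, an interferon-inducible ligand, rose by 2.31 ± 0.31 and had its lowest SNI value, 0.732 CPM, in E7. Ccl2 rose by 1.81 ± 0.31 to at most 1.31 CPM. Of the receptors, Il6ra rose by 0.92 ± 0.10.

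Reactive astrocyte genes rose in part. Of 19 genes 7 rose and none fell (median 0.24). Gfap, the intermediate filament of reactive astrocytes, was at 1125, 935, 1249, 994 and 976 CPM in naive cord and at 1819, 1701, 1837 and 1675 CPM after SNI. The lowest SNI library was above the highest naive one. The rise was 0.74 ± 0.07 (adjusted p = 2.47e-06). Serpina3n, a secreted protease inhibitor, rose by 0.72 ± 0.07, the hyaluronan receptor Cd44 by 0.72 ± 0.09, and Stat3, the transcription factor upstream of this programme, by 0.24 ± 0.04. Vim (0.21 ± 0.22) and Lcn2 (0.23 ± 0.54) did not pass. Of 14 genes of astrocyte identity 1 rose: Aqp4, the water channel of astrocyte end feet, by 0.24 ± 0.05 (adjusted p = 0.00409). None of 16 oligodendrocyte and none of 10 oligodendrocyte precursor genes passed (Mbp -0.05 ± 0.06).

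**Figure D2:**
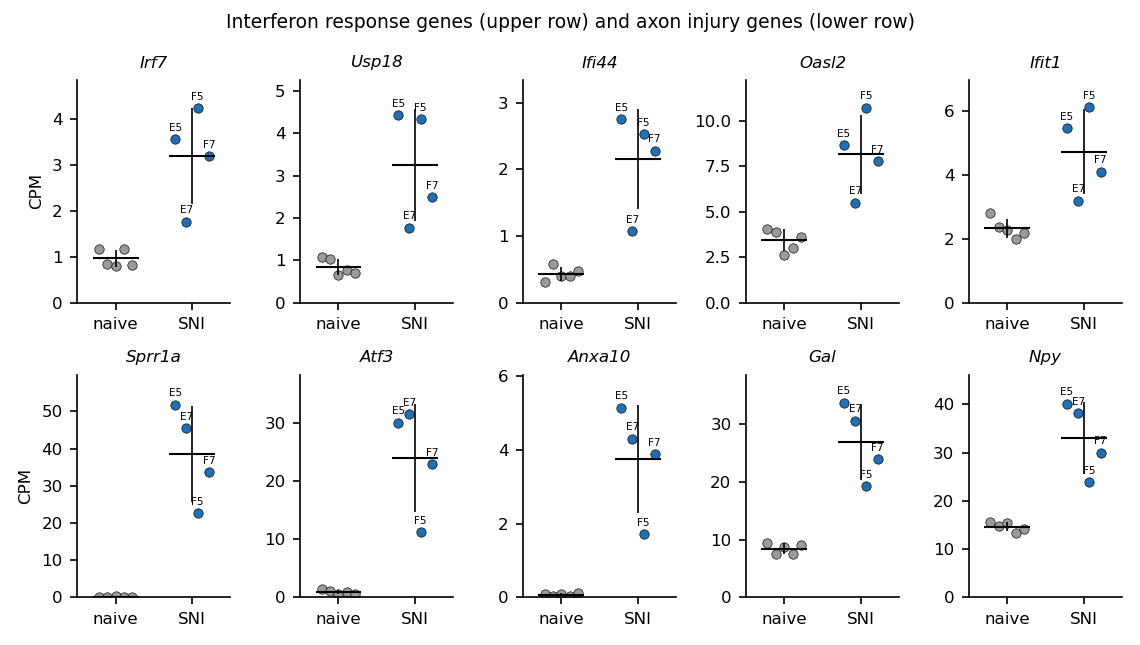
CPM of 5 interferon response genes (upper row) and 5 axon injury genes (lower row) in the 5 naive (grey) and 4 SNI (blue, with library codes) wild-type cord libraries; the horizontal line is the mean and the vertical line 1 SD. E7 is the lowest SNI library in the upper row and F5 in the lower row, and no group overlaps the other.

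The largest fold changes belonged to genes that injured neurons switch on. Of 26 tested genes of axon injury and regeneration 13 rose and none fell (median 0.34). Sprr1a, a small proline-rich protein gene induced in axotomised sensory and motor neurons, was at 0.0866, 0.0446, 0.487, 0.0809 and 0.218 CPM in naive cord and at 51.8, 45.5, 22.7 and 33.7 CPM after SNI. It was near 0 in every naive library and easily measured in every SNI library, with F5 the lowest. The rise was 7.68 ± 0.43 (adjusted p = 2.02e-08). Atf3, the stress-induced transcription factor that marks axotomised neurons, spans chr1:191170296-191218039 and was at 1.43, 1.03, 0.532, 0.890 and 0.522 CPM in naive cord and at 30.0, 31.5, 11.2 and 22.9 CPM after SNI. The groups were far apart, and F5 was again lowest. The rise was 4.75 ± 0.36 (adjusted p = 5.68e-07). Anxa10, an annexin gene, was at 0.0404 to 0.131 CPM in naive cord and at 5.15, 4.31, 1.71 and 3.89 CPM after SNI (5.50 ± 0.50, adjusted p = 8.81e-07). Lipn, a lipase gene, was at 0 in all 5 naive libraries and at 0.497, 0.560, 0.0856 and 0.166 CPM after SNI, so no fold is given.

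Neuropeptide genes of the same list rose from a basal level. Gal, which encodes galanin, was at 9.35, 7.58, 8.77, 7.44 and 9.14 CPM in naive cord and at 33.7, 30.6, 19.2 and 24.0 CPM after SNI. The groups did not overlap, with F5 lowest (1.67 ± 0.17, adjusted p = 1.18e-05). Npy, which encodes neuropeptide Y and is made by a class of dorsal horn inhibitory neurons as well as by injured sensory neurons, was at 15.6, 14.8, 15.3, 13.3 and 14.1 CPM and then at 40.1, 38.2, 23.9 and 30.0 CPM. Its SNI libraries kept the same order as those of Gal (1.18 ± 0.12, adjusted p = 8.03e-06). Gpr151, an orphan receptor gene, rose by 2.72 ± 0.30, Ecel1, a membrane peptidase gene, by 0.51 ± 0.06, and Gap43, the growth cone protein gene, by 0.34 ± 0.04. Jun (0.19 ± 0.08, adjusted p = 0.34), Flrt3 (0.14 ± 0.06) and Cacna2d1, the gabapentin target (0.12 ± 0.05), did not pass.

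F5 was the lowest SNI library in 11 of the 13 rises of the axon injury list, against 181 of all 492 rises. It was also the lowest in 10 of the 18 microglia identity rises and 5 of the 7 reactive astrocyte rises, but in 0 of the 17 interferon rises. Other markers differed between the SNI libraries too. The summed motor neuron and cholinergic list was 4117, 3556, 3023 and 2953 CPM in E5, E7, F5 and F7, against 3518 to 4791 CPM in naive cord. The list includes the neurofilament genes Nefh, Nefm and Nefl, so its sum does not measure motor neuron RNA alone. The summed primary sensory neuron list was 148, 147, 124 and 126 CPM, against 115 to 139 CPM. With 10 of its 15 markers at a mean under 1 CPM, this sum rests on few genes, Ret and Pou4f1 being the 2 at the highest naive level. The sensory sodium channel gene Scn10a was at 0.0404 to 0.866 CPM in naive cord and at 0.0414 to 0.984 CPM after SNI, at most 1 CPM in any library. The Schwann cell list summed to 637 to 1156 CPM after SNI and 715 to 1337 CPM in naive cord, and none of its 11 genes passed. The part of motor neuron, sensory or nerve root RNA in the rises of the axon injury genes was not tested. Without F5 14 genes of the list rose, with a median of 0.37.

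Genes of dorsal horn transmission changed little. Of 30 genes of inhibitory neurons, GABA and glycine 2 rose (Npy and Pdyn) and 4 fell (Gad1, Glrb, Slc6a9 and Slc12a5), with a median of -0.05; over all genes tested 0.271% fell. Gad1, which makes GABA, was at 255, 247, 242, 249 and 246 CPM in naive cord and at 213, 220, 228 and 232 CPM after SNI. Every SNI library was below every naive one, by a small margin. The fall was -0.15 ± 0.03 (log2; adjusted p = 0.00418). Slc12a5, the chloride exporter KCC2 that keeps GABA inhibitory, was at 535 to 584 CPM and then at 461 to 520 CPM (-0.15 ± 0.04, adjusted p = 0.0404). The glycine receptor subunit Glrb changed by -0.16 ± 0.04 and the glial glycine transporter Slc6a9 by -0.15 ± 0.04. The count of 4 falls rested on the setting: 8 fell with DESeq2 and 7 in the authors' table, but 2 in the 9 libraries alone, 1 with the title number as a term, 1 without E7, and 2 without A7, B5, C5 or E5. The call of Glrb was lost without C5, E7 or F5 (adjusted p = 0.06137 to 0.1268) and in the 9 libraries alone (0.07886). Gad2 (-0.05 ± 0.04), Slc32a1 (-0.19 ± 0.06, adjusted p = 0.102) and Slc6a5 (-0.16 ± 0.06) did not pass.

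Among peptides, Pdyn, the precursor of the opioid peptide dynorphin, was at 28.1, 24.9, 29.7, 26.3 and 27.2 CPM in naive cord and at 34.9, 41.8, 44.1 and 37.6 CPM after SNI. All SNI libraries were above the naive range (0.54 ± 0.07, adjusted p = 2.6e-05). It was the single called gene of 7 opioid genes; Penk (0.14 ± 0.06) and the receptor Oprm1 (-0.14 ± 0.12) did not pass. Tac1, the substance P precursor, rose by 0.27 ± 0.07 (adjusted p = 0.0175), the single called gene of 22 excitatory dorsal horn genes. In Tac1 the groups overlapped: E5 stood at 38.2 CPM, below the highest naive library at 39.6 CPM. The call was lost without A7, B7, E7, F5 or F7 (adjusted p = 0.05537 to 0.07387).

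Among ion channels, Scn9a, the sodium channel Nav1.7, was at 9.22, 8.97, 11.4, 9.38 and 9.53 CPM in naive cord and at 18.1, 17.96, 14.3 and 16.9 CPM after SNI. F5 was the lowest SNI library and B5 the highest naive one, and they did not meet (0.79 ± 0.11, adjusted p = 9.47e-05). Hcn2, a pacemaker channel gene, changed by -0.19 ± 0.05 with groups that overlapped (adjusted p = 0.0289), a call lost without A7, B5, E5, F5 or F7 (0.0832 to 0.1116) and in the 9 libraries alone (0.05697). One of 26 calcium and sodium channel genes rose and 1 fell, and 1 of 28 glutamate receptor and scaffold genes fell (Cacng2, an AMPA receptor regulator, -0.19 ± 0.04, adjusted p = 0.0078). The Cacng2 call was lost in the 9 libraries alone (adjusted p = 0.05118) and with the title number as a term (0.0642). It was also lost with the replicate number of the column names as a block (0.08039). None of 16 general neuronal genes passed.

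The other falls were shallow as well. Ache, which encodes acetylcholinesterase, was at 175, 189, 176, 180 and 171 CPM in naive cord and at 149, 151, 159 and 147 CPM after SNI. The groups did not overlap (-0.24 ± 0.04, adjusted p = 0.000423). It was the single called gene of 14 motor neuron and cholinergic genes, whose median was -0.26; Chat (-0.38 ± 0.18) and Mnx1 (-1.43 ± 0.44, adjusted p = 0.0984) did not pass. Slc13a3, a sodium-coupled dicarboxylate transporter gene, was at 32.6, 28.5, 28.7, 28.6 and 29.8 CPM and then at 22.5, 21.8, 24.9 and 20.3 CPM (-0.40 ± 0.07, adjusted p = 0.000517). Every SNI library was again below every naive one. Further falls between -0.21 and -0.40 were those of Hs6st3, Ttc39a, Plekhd1, Pygm (muscle glycogen phosphorylase, also made by astrocytes), Slc7a10 (an amino acid transporter), Nell2 and Fam57b. The call was lost for Hs6st3 without B5, B7, C5, E5, E7, F5 or F7, for Slc7a10 without A7, B5, C5, F5 or F7, and for Fam57b without A7, C5, E5 or F7. Of the 51 falls, 4 were called under every processing alternative, among them Slc13a3 and Ache.

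Of the largest rises outside the lists, Lag3, an inhibitory immune receptor gene, was at 2.12, 2.86, 1.64, 2.30 and 1.78 CPM in naive cord and at 8.98, 12.2, 8.95 and 8.41 CPM after SNI. Its SNI libraries were all far above naive, with E7 highest (2.17 ± 0.14, adjusted p = 6.95e-11). Serpina3h, a protease inhibitor gene, rose by 2.26 ± 0.26, though how reads were split between it and its near copies, Serpina3n among them, is uncertain. Ctla2a, a cathepsin inhibitor gene, rose by 1.80 ± 0.18, Slfn9 by 1.49 ± 0.20 and Tnfaip8l2, a regulator of immune signalling, by 1.53 ± 0.20. Rpl17-ps5, a ribosomal protein pseudogene, was called (2.12 ± 0.51, adjusted p = 0.0336), but 2 naive libraries stood near 10 CPM and 3 at or below 1.09 CPM, and the call was lost in 11 of 18 alternatives, among them those without A7, B7, E5, E7, F5 or F7. Abca1, the cholesterol exporter, rose by 0.74 ± 0.08 and Lcat by 0.22 ± 0.06, the 2 called of 20 cholesterol genes; the call of Lcat was lost without B7, C5, E7 or F5 (adjusted p = 0.05176 to 0.1274) and in the 9 libraries alone (0.07028).

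**Figure D3:**
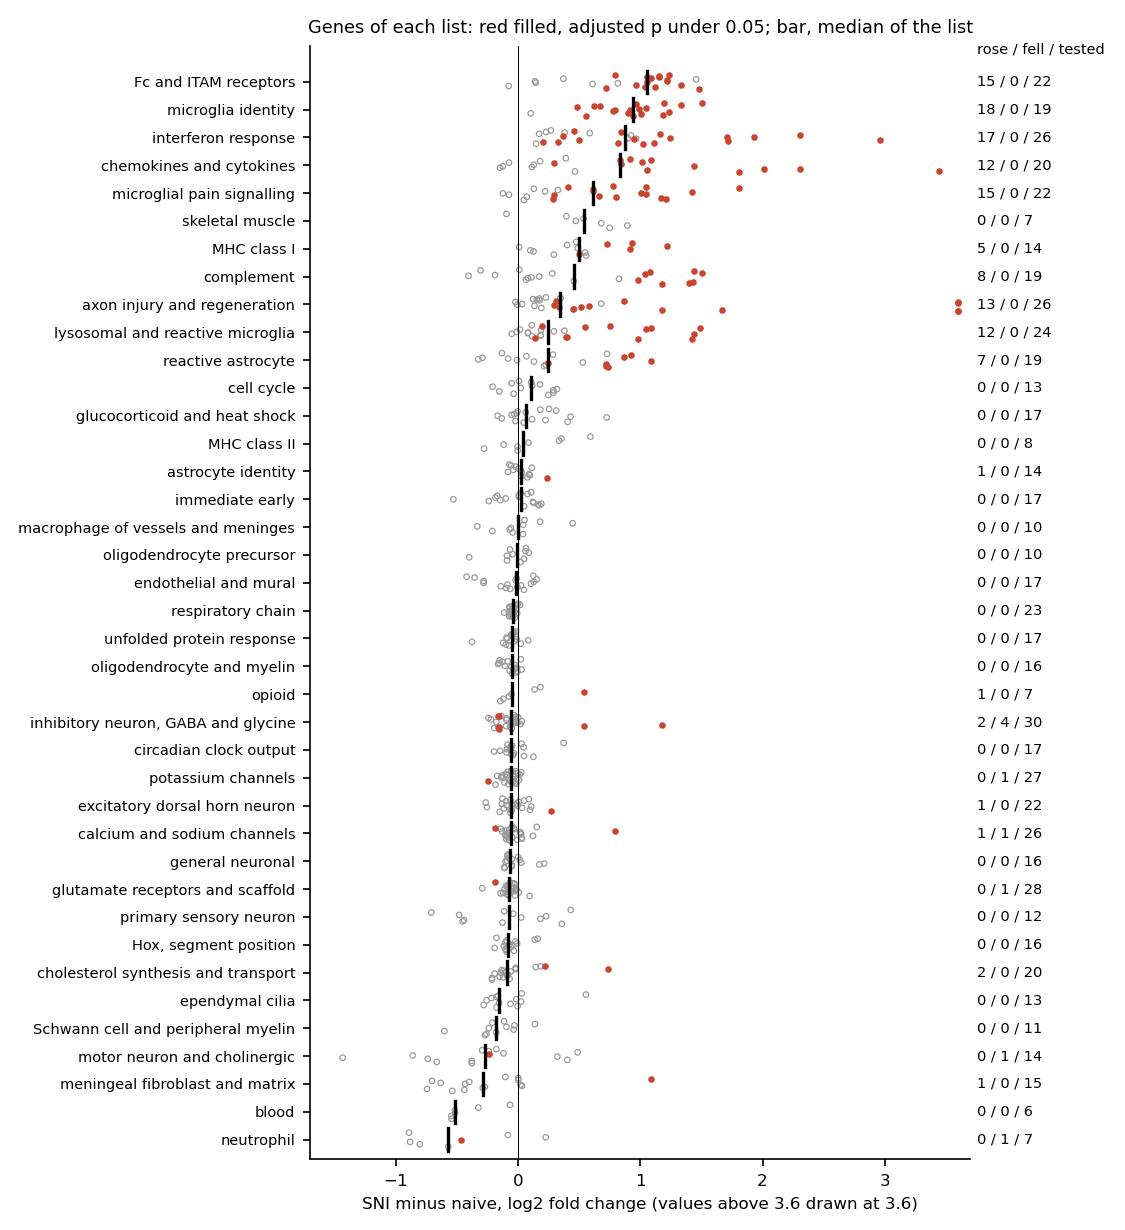
Each row is a gene list with at least 6 tested genes; points are genes at their log2 fold change of SNI over naive in wild-type cord (red filled, adjusted p under 0.05), black bars are list medians, and the numbers give genes that rose, fell and were tested. Lists of microglia, ITAM receptors and interferon response sit furthest to the right, while neuronal, oligodendrocyte, vessel and stress lists centre near 0.

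Lists for other tissue and stress states held few or no called genes. None passed among 17 endothelial, 13 ependymal, 7 muscle, 23 respiratory chain, 17 unfolded protein response and 16 Hox genes, and none of the immediate early, circadian or glucocorticoid and heat shock genes passed. The muscle list had a median of 0.54 and the red cell list of -0.51 without a call in either. Of 15 meningeal fibroblast and matrix genes 1 rose (Timp1, 1.08 ± 0.30, adjusted p = 0.0483), a call lost without A7, B7, C5, E5, E7, F5 or F7 (0.0668 to 0.1865). The summed level of that list was 1588 to 2849 CPM in naive cord and 1662 to 2103 CPM after SNI, and A5 was the highest naive library for it, for macrophages of vessels and meninges (38.02 CPM) and for Schwann cells (1337 CPM). The summed red cell list was 232 to 551 CPM in naive cord and 244 to 312 CPM after SNI. Without A5 499 genes rose and 63 fell.

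In the cord of knockout mice, SNI raised 715 genes (3.79% of those tested) and lowered 118 (0.626%). The 416 rises shared by the genotypes were 84.6% of the wild-type and 58.2% of the knockout rises, 7 falls were shared (13.7% and 5.93%), and no gene was called in opposite directions. The test of the difference itself, the interaction of genotype and SNI, called no gene (0.0%), with a lowest adjusted p of 0.737; 1150 genes (6.10%) had an unadjusted p under 0.05, and DESeq2 also called 0. Microglial genes rose in both genotypes: Csf1r by 1.13 ± 0.05 and Itgam by 1.78 ± 0.07 in knockout cord, where 18 of the 19 microglia identity genes rose. For Itgam the knockout response was 0.27 ± 0.11 above the wild-type one (unadjusted p = 0.0178).

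Some lists and single genes, picked after their values were seen, differed in value between the genotypes, but no gene passed the test of the difference. In that test 6.10% of all genes had an unadjusted p under 0.05, so the unadjusted p-values below do not establish a difference. Of the 26 interferon response genes 9 rose in knockout cord, with a median of 0.41 against 0.87 in wild-type cord. Irf7 rose by 0.87 ± 0.22 there, a response 0.85 ± 0.31 below that of wild-type cord (unadjusted p = 0.0121, adjusted p = 0.737), and Mx2 changed by 0.25 ± 0.16 against 0.95 ± 0.16 (unadjusted p = 0.00458). Gfap, in turn, rose by 1.11 ± 0.07 in knockout cord, 0.37 ± 0.10 above the wild-type response (unadjusted p = 0.00219), and Pdyn by 0.86 ± 0.07, 0.32 ± 0.10 above it (unadjusted p = 0.00459). Of the axon injury genes 17 of 26 rose in knockout cord, among them Sprr1a (9.59 ± 0.52) and Atf3 (4.94 ± 0.36).

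In the wild-type DRG, fitted together with the cord over 20044 genes, SNI raised 2426 genes (12.1%) and lowered 2249 (11.2%). Of the cord rises 310 also rose in the DRG, 63.0% of the cord rises and 12.8% of the DRG rises, and 11 fell there; of the cord falls 19 also fell and none rose. The response differed between the tissues in 1735 genes, higher in cord in 765 (3.82%) and higher in DRG in 970 (4.84%). The axon injury list was on the DRG side: 26 of 27 genes rose there with a median of 2.95, and 22 responded more in DRG than in cord. Sprr1a went from 0.18 ± 0.09 CPM (SD, n = 5) to 503 ± 133 CPM (SD, n = 4) in DRG, a response 3.69 ± 1.01 above that of the cord on the log2 scale (adjusted p = 0.0272). Npy went from 0.26 ± 0.21 to 123 ± 17 CPM in DRG, 7.68 ± 0.32 above its cord response, and Gal from 12.9 ± 1.3 to 1080 ± 83 CPM, 4.74 ± 0.19 above it.

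Of the 19 microglia identity genes 15 rose in DRG, whose macrophages share many of them; 2 responded more in cord, 3 more in DRG, and the others did not pass the test of the difference. The responses of Csf1r and Itgam did not pass the test of the difference (adjusted p = 0.326 and 0.792). Markers of macrophages of vessels and meninges, none of which passed in cord, rose in DRG in 10 of 12 cases with a median of 1.48, and 6 responded more there; Mrc1 went from 37.8 ± 11.4 to 105 ± 31 CPM (1.47 ± 0.24). Of the interferon response genes 8 of 26 rose in DRG, with a median of 0.27, and 6 responded more in cord, none more in DRG. Of all genes tested in each tissue 12.1% rose in DRG and 2.61% in cord, so list counts of the tissues have unlike backgrounds. Ifi44 changed by -0.03 ± 0.28 in DRG, 2.31 ± 0.44 below its cord response (adjusted p = 0.00172). Lag3 was at 1.05 ± 0.11 and 1.15 ± 0.49 CPM in naive and injured DRG, a difference of 2.02 ± 0.32 between the tissues (adjusted p = 0.000285).

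Scn9a, Tac1 and Aqp4 moved in opposite directions. Scn9a rose in cord and fell by 0.51 ± 0.08 on the log2 scale in DRG, from 578 ± 34 to 406 ± 41 CPM, a difference of 1.28 ± 0.12 (adjusted p = 8.65e-07). Tac1 fell by 0.76 ± 0.08 in DRG, from 237 ± 23 to 140 ± 15 CPM, a difference of 1.01 ± 0.12 (adjusted p = 1.47e-05). Aqp4 fell by 0.60 ± 0.10 there, a difference of 0.82 ± 0.13 (adjusted p = 0.000416).

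**Figure D4:**
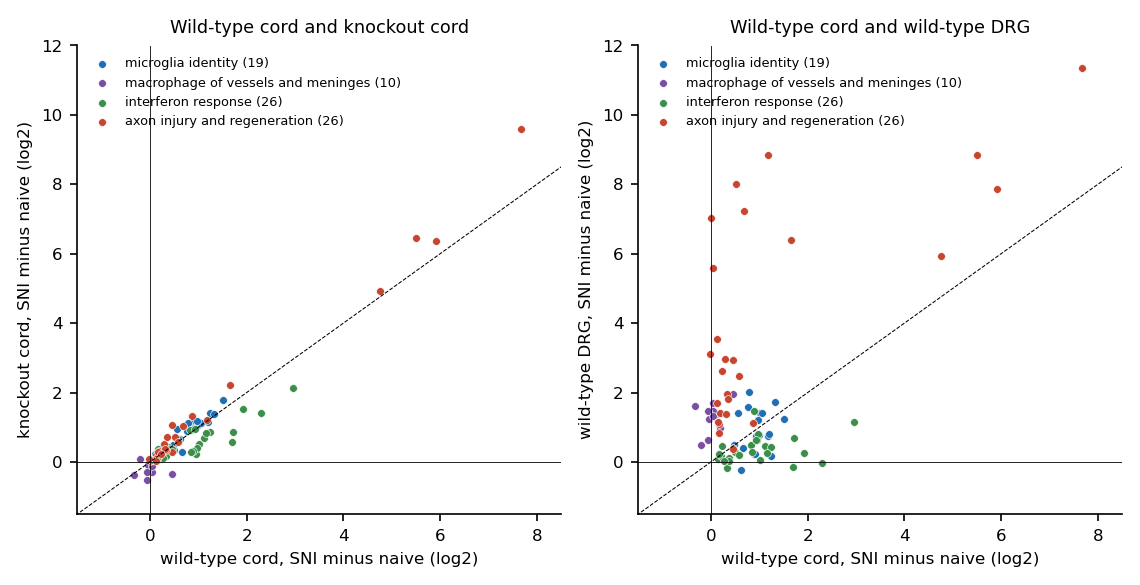
Log2 fold changes of SNI over naive in wild-type cord (x axis) against those in knockout cord (left) and wild-type DRG (right) for genes of 4 lists; the dashed line marks equal responses. In the right panel axon injury genes and macrophages of vessels and meninges lie above the line and the interferon genes lie mostly below it.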

How the data were processed

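RNA of the 9 wild-type dorsal cord libraries was measured by sequencing. Per the labels, RNA was extracted with an RNeasy Plus Universal kit and 1 µg went into TruSeq stranded mRNA libraries. Per the submitters' processing notes, the tools were FastQC 0.11.5, HISAT2 and RSEM with the build GRCm38; nothing used here states their settings or the gene annotation. The deposited raw table holds estimated counts per gene (55487 genes), which the authors made per library; they were rounded to whole numbers. The deposited normalised table (52999 genes) holds signal values, each the raw value times 1 factor per library set by the authors, and served as an alternative. A single DRG column that the authors deposited with decimal commas (9150 cells) was read with points, and 1 lost cell was restored.

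The test was edgeR 4.0.16's quasi-likelihood test (R 4.3.3) with TMM scaling (which centres most genes near 0) and filterByExpr over the 18 cord libraries in 4 groups, with 14 residual degrees of freedom, so the knockout cord libraries entered the filter and the spread of that fit. The common biological coefficient of variation was 0.0744. CPM use TMM-scaled library sizes and are not per length, so levels of different genes were not compared. SE is the absolute log2 fold change over the square root of F. The cord and DRG of wild-type mice were fitted together over 18 libraries. Calls are at an adjusted p under 0.05. On simulated counts the scripts were tested before use. DESeq2 1.42.0 and limma 3.58.1 were alternatives, with other filters, size factors, samples and terms, and each library left out in turn.

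Named genes were the 12 largest called rises and 12 largest called falls whose groups did not overlap and whose mean over the 9 libraries reached a log2 CPM of 1 (predicted genes counted, not described), and per list up to 4 called members with the lowest adjusted p, or 2 of the highest level where none was called. There were 41 lists. The comparison, the lists and the rule were chosen with earlier results of these data known. Libraries of 1 group differed by more than sampling noise (chi-square per gene of 4.45 to 8.57). Samples and columns were all mapped by their labels. DRG libraries entered only the joint fit of both tissues. Some genes tested are not reported here by name.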

Additional observations from a re-analysis of the deposited data

Results flagged for a closer look

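In 17 of 218 gene and group combinations (7.8%) the highest or lowest library stood apart from the rest of its group by Dixon's criterion, which chance meets in about 1 in 20 groups. Naive library A5 was the highest in 5 of them: Csf1r at 85.3 CPM, C1qc at 24.6 CPM, C1qb at 24.2 CPM, Psmb8 at 2.94 CPM and Cd74 at 16.7 CPM. Among the other naive libraries, Tnfaip8l2 was low in B7 (0.687 CPM), Scn9a high in B5 (11.4 CPM), Hspa8 low in B5 (1147 CPM) and Snap25 high in A7 (3090 CPM). Among the SNI libraries, E7 was high for Lag3 (12.2 CPM) and Hcn2 (210.5 CPM) and low for Snap25 (2292 CPM). F5 was high for Mrc1 (8.77 CPM) and Hoxc10 (69.1 CPM) and low for Ttc39a (10.4 CPM). F7 was low for Fcgr1 (8.12 CPM) and E5 low for Tac1 (38.2 CPM).

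The SNI response differed between cord and DRG in 1735 genes by the interaction test. Among the named genes the difference, cord minus DRG on the log2 scale, was positive for Ccl7 (2.55), Ifi44 (2.31), Lag3 (2.02) and Usp18 (1.65). It was also positive for Serpina3h (1.58), Ctla2a (1.37), Scn9a (1.28), Ly86 (1.24) and Tac1 (1.01). It was positive but smaller for Aqp4 (0.82), Oasl2 (0.79), Lcat (0.42), Snap25 (0.41) and Glrb (0.29). A positive difference does not mean a larger change in cord: Tac1 fell in DRG by more than it rose in cord, and Glrb fell in cord. The difference, cord minus DRG, was negative for Npy (-7.68), Ecel1 (-7.51), Gal (-4.74), Sprr1a (-3.69), Gpr151 (-3.44) and Anxa10 (-3.36). It was smaller and also negative for Slfn9 (-1.61), Mrc1 (-1.45), Stab1 (-1.27), Jun (-1.23) and Abca1 (-0.87).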

How the results depend on the processing

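The count of rises, 492, stayed within 1.5 times under every alternative run: 331 with the replicate number of the column names as a replicate block (chosen after seeing the data) to 523 with DESeq2, and 417 to 499 with 1 library left out, lowest without E7. The count of falls, 51, was less stable: 28 in the 9 wild-type cord libraries alone, 104 with DESeq2, 80 with limma on the authors' normalised table, 23 with the replicate block, 30 with the title number as a term, and 30 to 63 with 1 library left out (30 without A7, 33 without B5, 31 without F7); the cause was not tested. Same-numbered naive and SNI libraries deviated together by correlations of -0.02 to 0.03, so the numbers were not taken as pairs. The genotype interaction called 0 genes with DESeq2, other size factors, both filters and each of the 18 cord libraries left out, the alternatives run for it. The tissue interaction called 1265 genes with no filter on low counts, 1486 with the replicate block and 1342 to 1888 with 1 library left out. Same-numbered DRG and cord libraries correlated at 0.10 to 0.34. The main tissue fit held no such block. The SE and adjusted p given for single genes between the tissues therefore take DRG and cord libraries as unpaired. Of 71 called named genes 20 lost their call in at least 1 of 18 alternatives, of which 18 under the replicate block, and none reversed; the other 51 kept it wherever they were tested, Ccl7 and Cxcl10 being filtered out at a mean CPM of at least 1. The replicate block left 0 of the 4 falls of the inhibitory list. Of the 492 rises 263 were called under every alternative. The median over all genes stayed between -0.02 and 0.00. At 22.5 to 24.8 M estimated reads per library, genes below about 0.1 CPM rest on a few reads.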

Other observations

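Some called genes outside the lists, chosen after their values were seen, are known from myeloid cells. Among transcription factors, Spi1, which encodes PU.1, rose by 0.88 ± 0.18 (log2, SE; adjusted p = 0.0034), Runx1 by 1.27 ± 0.17, Ikzf1 by 1.24 ± 0.12 and Cebpa by 0.83 ± 0.13. Spi1 was at 2.38, 3.26, 2.44, 2.14 and 1.96 CPM in naive cord and at 4.79, 5.04, 4.02 and 4.14 CPM after SNI, with no overlap. Nckap1l, the blood cell subunit of the actin-regulating WAVE complex, was among the steadiest rises, from 12.7 to 13.6 CPM to 26.4 to 28.2 CPM (1.05 ± 0.05, adjusted p = 2.1e-13). The nucleic acid sensor genes Tlr7 (1.23 ± 0.14) and Tlr9 (0.88 ± 0.22) and the inflammasome genes Nlrp3 (1.01 ± 0.20) and Pycard (1.12 ± 0.14) rose too. Runx1 changed by -0.32 in the DRG, and its response differed between the tissues (adjusted p = 0.000546).

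Several genes that were silent or nearly so in naive cord appeared after SNI, and in most of them F5 was the lowest SNI library. Ankrd1, a stress-induced ankyrin repeat gene, was at 0 in 4 naive libraries and 0.0446 CPM in the other one, and at 1.40, 1.08, 0.428 and 1.04 CPM after SNI. Sprr2j-ps and Lce1g, which lie on chromosome 3 on either side of Sprr1a (chr3:92418082-92419396 and chr3:92750148-92752338, with Sprr1a at chr3:92483952-92485895), were at 0 in all naive libraries. After SNI Sprr2j-ps was at 0.632, 0.646, 0.2996 and 0.580 CPM and Lce1g at 0.542, 0.517, 0.257 and 0.290 CPM. Cd207, which encodes langerin, was at 0 in naive cord and at 0.406, 0.431, 0.0428 and 0.331 CPM after SNI. Fst, which encodes the activin antagonist follistatin, went from 0.218 to 0.446 CPM to 1.37 to 3.43 CPM (2.54 ± 0.31). Unlike these genes, S100a10, a partner of annexin A2, was already expressed in naive cord. It went from 17.3 to 23.2 CPM to 25.8 to 47.9 CPM (0.87 ± 0.17).

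A few further falls, chosen after their values were seen, were small. Kcnab2, a potassium channel subunit, changed by -0.18 ± 0.05, the sodium leak channel Nalcn by -0.17 ± 0.04, the calcium pump Atp2b2 by -0.14 ± 0.04, the muscarinic receptor Chrm2 by -0.15 ± 0.04 and the glutamine transporter Slc38a3 by -0.20 ± 0.05. In each of these 5 genes no SNI library overlapped a naive one. They were picked from the 51 called falls, of which 39 did not overlap. Over all genes tested 1.46% had SNI libraries entirely below the naive ones. Only 4 of the 51 falls were called under every processing alternative.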
